A study of Mus musculus with 25 samples.

Results

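The genes described here are 34 interferon-stimulated genes, named by symbol and each matched to 1 Ensembl gene of the 48795 genes measured in mouse liver and liver tumors. The list was drawn up by gene name, with earlier results of these data known. Bulk RNA of 25 samples was sequenced. All samples came from male C57BL/6J mice, an inbred strain. Liver of mice that received no carcinogen and ate a control diet is called nonDEN L-CD (3 samples), and liver of such mice on a western diet is called nonDEN L-WD (4 samples). Mice of the other 3 groups were injected with 25 mg/kg diethylnitrosamine (DEN), a carcinogen activated in hepatocytes, at 2 weeks of age. Their samples were liver of mice on the control diet (DEN L-CD, 4 samples), peritumoral liver of mice on the western diet (DEN PT-WD, 8 samples) and tumors of mice on the western diet (DEN T-WD, 6 samples). Diets began at weaning, and mice were culled at 36 weeks of age, although up to 39 weeks is also stated. The DEN L-CD samples are whole liver, because tumors of those mice were too small to be separated, and no tumor group on the control diet stands beside them. In the values of single genes these groups are also called control livers (nonDEN L-CD), western diet livers (nonDEN L-WD), DEN livers (DEN L-CD), peritumoral samples and tumors. The labels do not say which samples came from one animal, so the p-values measure the spread between samples.

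Interferons are secreted cytokines: those of type I and type III are made after a cell senses foreign or misplaced nucleic acid, and that of type II mainly by activated T cells and NK cells. Type I and type III interferons act through receptors and the kinases JAK1 and TYK2 on a complex that contains STAT2 and IRF9 and binds the interferon-stimulated response element (ISRE), while type II interferon acts mainly through the gamma-activated site (GAS). The induced genes include sensors and transcription factors that amplify the response, antiviral effectors, GTPases that attack intracellular parasites, and the machinery that loads peptides onto class I molecules. In the liver, hepatocytes, Kupffer cells, endothelial cells and infiltrating leukocytes can all express them.

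The RefSeq promoter table of GRCm38.p6 held a window of 250 bases before to 50 bases after the start for 26 of the 34 genes. No window was matched for *Tap2*, *Rtp4*, *Usp18*, *Oas2*, *Mx1*, *Dhx58*, *Zbp1* and *Nlrc5*. The windows were searched on both strands for ISRE letters, taken as GAAA, any 2 bases and GAAA, of which TTTC, any 2 bases and TTTC is the reverse complement. At least 1 match was found in 15 of the 26 genes (57.7%), compared with 1079 of 27025 genes in the whole table (3.99%, 95% Wilson interval 3.77% to 4.23%). When 2 or 3 bases were allowed between the GAAA pieces, 17 of the 26 genes (65.4%) and 6.9% of all genes held a match. GAS letters, taken as TTC, any 3 bases and GAA, were found in 8 of the 26 genes (30.8%) and 9.55% of all genes. ISRE and GAS letters can overlap, and these are matches of letters, not sites of binding. Each of the following 8 stretches lies 5′ of the annotated start, is written 5′ to 3′ on the strand of the gene and has the ISRE letters in capitals. They are shown as examples from several roles in the list, of genes that passed a planned comparison and of genes that did not.
*Isg15*, chr4:156200862-156200921, minus strand: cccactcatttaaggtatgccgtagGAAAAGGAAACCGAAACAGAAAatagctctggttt
*Ifit1*, chr19:34640760-34640819, plus strand: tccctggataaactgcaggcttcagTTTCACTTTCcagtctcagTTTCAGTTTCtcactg
*Ifit3*, chr19:34583348-34583407, plus strand: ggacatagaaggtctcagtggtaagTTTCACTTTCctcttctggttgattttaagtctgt
*Oas1a*, chr5:120907526-120907585, minus strand: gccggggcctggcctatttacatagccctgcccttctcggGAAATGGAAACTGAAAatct
*Oas3*, chr5:120777700-120777759, minus strand: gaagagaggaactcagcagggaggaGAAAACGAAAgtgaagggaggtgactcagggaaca
*Rsad2*, chr12:26456538-26456597, minus strand: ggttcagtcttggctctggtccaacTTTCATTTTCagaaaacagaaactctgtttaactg
*Bst2*, chr8:71537568-71537627, minus strand: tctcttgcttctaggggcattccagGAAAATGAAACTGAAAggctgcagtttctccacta
*Stat2*, chr10:128270251-128270310, plus strand: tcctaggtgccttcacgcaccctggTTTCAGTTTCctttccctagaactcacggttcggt
The letters recur in *Isg15*, where 3 matches overlap, in *Oas1a* and *Bst2*, where 2 overlap, and in *Ifit1* and *Ifit3*, where 2 separate matches occur upstream of the start. The other match of *Ifit3* runs past the end of the stretch shown and is not marked. *Stat2* holds them too. *Stat2* fell, and *Bst2* passed no planned comparison. ISRE letters with 2 bases between the pieces were not found in the windows of *Ifi44*, *Ifit2*, *Irf1*, *Irf7*, *Irf8*, *Irf9*, *Oasl2*, *Psmb8*, *Psmb9*, *Tap1* and *Xaf1*.

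Libraries held 21530083 to 38074411 expected counts, and the lowest count of any of the 34 genes in any library was 9, for *Mx1*. All 34 genes therefore passed the filter on low counts, with 15625 genes tested. The sample labelled DEN T-WD replicate 5 stood apart: its rank correlation with the other tumors was 0.96 (median over pairs, all tested genes), compared with 0.977 to 0.987 as the corresponding value of the other 24 libraries. Its summed level of 6 hepatocyte markers was 39450 CPM (counts scaled by library size), against 120800 to 159400 in the other 5 tumors, and its 3 pan-leukocyte markers summed to 260.1 CPM, against 102.1 to 152.6. Hepatocyte markers were abundant in every group. CPM values below use edgeR's TMM library sizes, whose factors were 0.835 to 1.027 in the 3 liver groups without dissected tumors and 1.014 to 1.256 in peritumoral liver and tumors. On the TPM scale of the files, which is not corrected in this way, the median of all tested genes was higher by 0.38 (log2) in tumors than in control livers and fold changes below therefore come from the counts.

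Per length of transcript, *Bst2* (tetherin, which holds budding virus at the cell surface) had the highest level of the 34 genes, with a mean of the 5 group means of 124 TPM. *Irgm1*, a GTPase of the vacuole defence system, followed at 42.3 TPM and the immunoproteasome subunit *Psmb8* at 26.1 TPM. The lowest were *Mx1* (0.993 TPM), *Oas2* (0.852 TPM) and *Oas3* (0.721 TPM). C57BL/6J mice carry a defective *Mx1* allele, so that its RNA does not stand for a working protein.

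**Figure D1:**
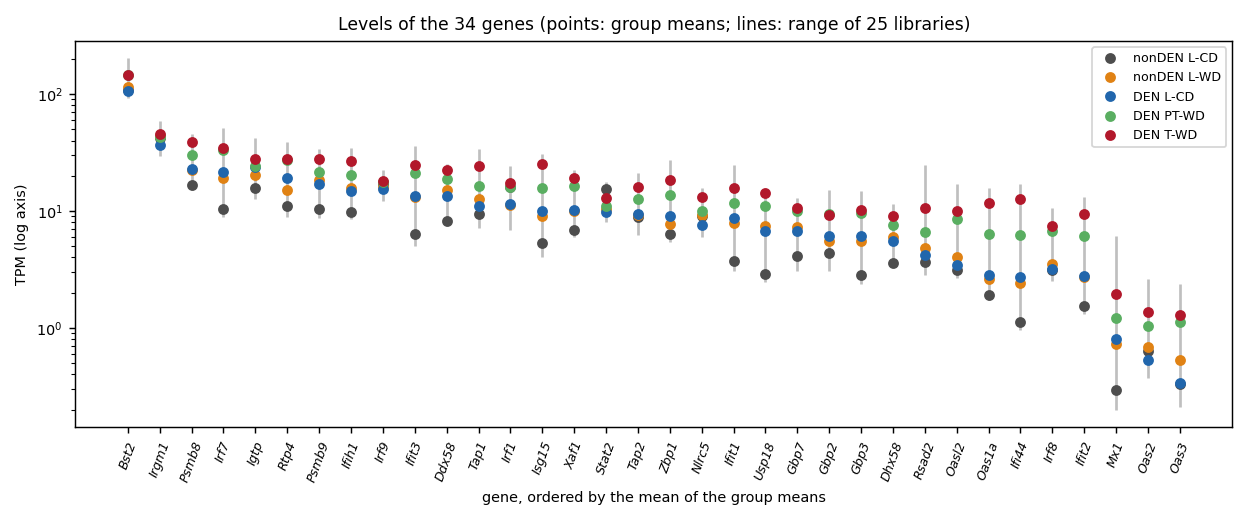
TPM of the 34 genes on a log axis, ordered by the mean of the 5 group means; points are group means and grey lines span the lowest to the highest of 25 libraries. *Bst2* stands at the top with library values of 92.3 to 202 TPM, and *Oas3* at the bottom with 0.21 to 2.36 TPM.

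The mean log2 CPM of the 34 genes gives the overall order of the groups. It was 3.18 ± 0.18 in control livers (SD, n = 3), 3.55 ± 0.11 in western diet livers (n = 4), 3.58 ± 0.28 in DEN livers (n = 4), 3.90 ± 0.31 in peritumoral samples (n = 8) and 4.08 ± 0.26 in tumors (n = 6). nonDEN L-WD and DEN L-CD differed by less than their spread, as did DEN PT-WD and DEN T-WD. The ranges of nonDEN L-CD (3.07 to 3.39) and DEN T-WD (3.81 to 4.38) did not overlap, whereas DEN PT-WD (3.34 to 4.32) overlapped every other group.

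**Figure D2:**
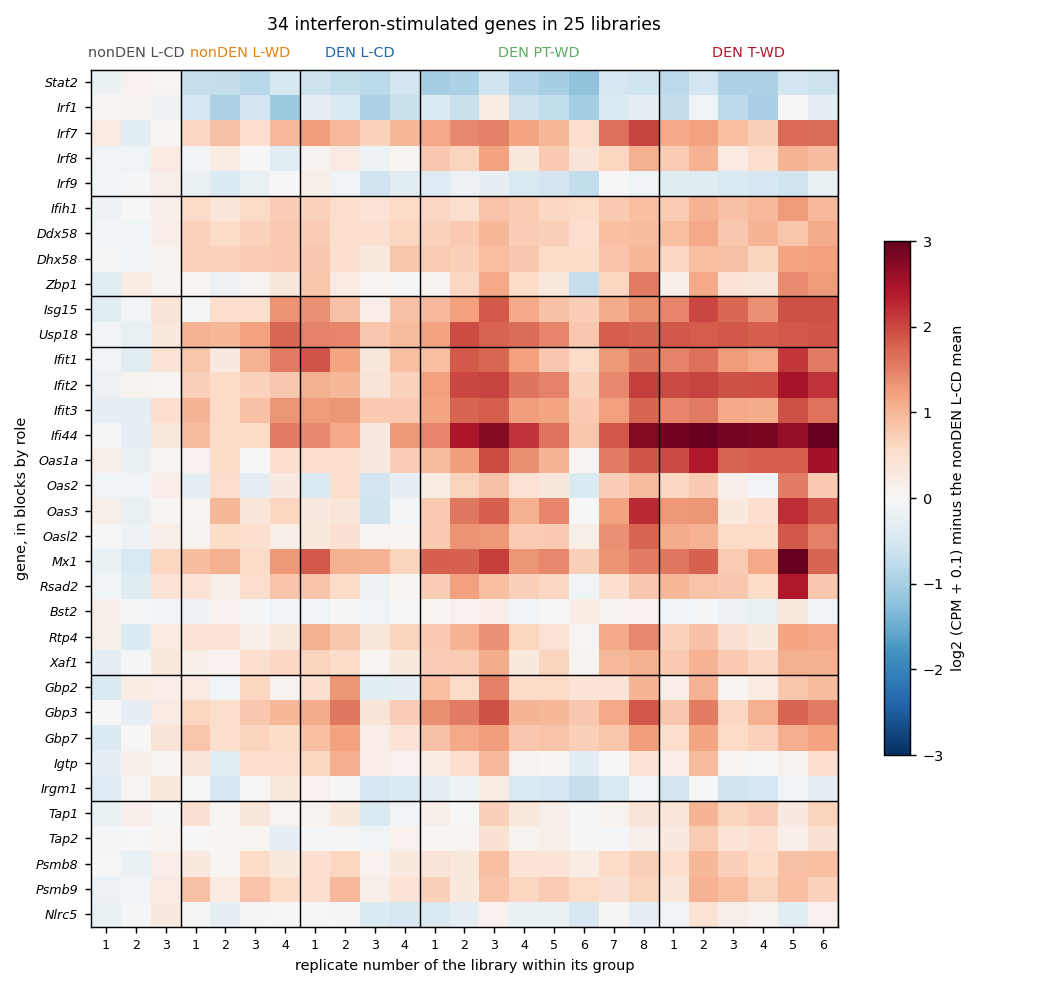
Each cell is log2 (CPM + 0.1) of a gene (rows, in blocks by role) in a library (columns, by group and replicate number) minus the mean of the 3 nonDEN L-CD libraries; the colour scale ends at 3 in either direction. *Ifi44*, *Ifit2* and *Oas1a* have their strongest positive values in tumors, *Stat2* is below the control mean in all 22 other libraries, and DEN PT-WD replicate 6 has the lowest value of its group in 29 of the 34 genes.

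Comparisons used edgeR's quasi-likelihood test with Benjamini-Hochberg adjustment over 15625 genes. A gene is said to rise or fall at an adjusted p of at most 0.05, and is called where the log2 fold change was also at least 1 in size. Values after ± are standard errors for fold changes.

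The first comparison asked what the western diet did in liver without DEN. In nonDEN L-WD, 8 of the 34 genes rose above nonDEN L-CD, where 11.2% of all tested genes rose, and 2 fell, where 12.0% of all genes fell. *Usp18*, the protease that removes ISG15 from proteins and blocks the type I receptor, was the only gene called, at a log2 fold change of 1.27 ± 0.24 (adjusted p = 0.000586). That is 1 of 34 genes, against 3.24% of all genes called higher. The others that rose were the RNA helicase sensors *Dhx58* (0.73 ± 0.15), *Ddx58* (0.69 ± 0.11) and *Ifih1* (0.57 ± 0.12), the IFIT genes *Ifit1* (0.98 ± 0.35), *Ifit3* (0.94 ± 0.26) and *Ifit2* (0.70 ± 0.25), and *Psmb9* (0.65 ± 0.19). *Stat2*, a subunit of the ISRE-binding complex, fell at -0.68 ± 0.14 (adjusted p = 0.00149), and *Irf1* fell at -0.77 ± 0.25 (adjusted p = 0.027). The median log2 fold change of the 34 genes was 0.34, beside 0.01 for all tested genes. Without nonDEN L-CD replicate 1 or 2 only 4 genes rose, and without nonDEN L-WD replicate 1 only 5, while *Ifit3* was also called without nonDEN L-CD replicate 3, and *Ifit1* and *Ifit3* without nonDEN L-WD replicate 2. *Irf1* missed the threshold without nonDEN L-CD replicate 1 or 2 or nonDEN L-WD replicate 2 or 4 (adjusted p = 0.0533, 0.0998, 0.0672 and 0.0672), whereas *Stat2* passed in all 7 such fits. Beside these values all 3 tested neutrophil markers were called lower, *S100a8* at -2.10, *S100a9* at -1.65 and *Retnlg* at -2.63. Of 4 stellate cell and fibroblast markers the collagens *Col1a1* (1.26) and *Col3a1* (1.39) were called higher, while *Lrat* (-0.23) and *Dcn* (0.02) did not pass. Of 4 B cell markers only *Cd79a* (1.65) passed, and of 5 classical dendritic cell markers only *Itgax* (1.51), both called higher. Their part in the result was not tested.

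In DEN L-CD compared with nonDEN L-CD, which sets DEN-injected mice against mice without DEN on the control diet, 13 of the 34 genes rose (9.12% of all genes), and 12.2% of all genes fell, of the 34 only *Stat2*, at -0.68 ± 0.14 (adjusted p = 0.0015). The genes called were *Usp18* at 1.22 ± 0.24 (adjusted p = 0.000913), *Ifit1* at 1.17 ± 0.35 (adjusted p = 0.0219), *Ifi44* at 1.12 ± 0.40 (adjusted p = 0.0478), *Ifit3* at 1.03 ± 0.26 (adjusted p = 0.00721) and *Gbp3* at 1.02 ± 0.31 (adjusted p = 0.0209). These 5 are 14.7% of the list, and 2.76% of all genes were called higher. *Irf7* (0.98 ± 0.28), *Isg15* (0.88 ± 0.30), *Ifit2* (0.83 ± 0.25), *Gbp7* (0.71 ± 0.22), *Dhx58* (0.62 ± 0.15), *Ddx58* (0.60 ± 0.11), *Ifih1* (0.56 ± 0.12) and *Psmb9* (0.54 ± 0.19) also rose. The median log2 fold change was 0.48, beside 0.03 for all genes. This comparison and the one before share the 3 nonDEN L-CD libraries, so that a low or high control value enters both. *Stat2* stood at -0.68 in each, and *Usp18* at 1.27 and 1.22. Apart from *Usp18*, each call was lost without some single libraries. Without DEN L-CD replicate 1 and without nonDEN L-CD replicate 2 only 1 gene was called, and without DEN L-CD replicate 2 or nonDEN L-CD replicate 1 only 2. The number that rose was 7 without DEN L-CD replicate 1 or 2, 6 without nonDEN L-CD replicate 1 and 4 without nonDEN L-CD replicate 2. *Ifit1* was at 0.83 (adjusted p = 0.0963) without DEN L-CD replicate 1 and had adjusted p of 0.0656 and 0.117 without nonDEN L-CD replicates 1 and 2, and *Ifi44* kept its call only without DEN L-CD replicate 3, with adjusted p up to 0.177 otherwise. *Ifit3* lay at 0.95, 0.93, 0.89 and 0.89, and *Gbp3* at 0.99, 0.77, 0.99 and 0.91, without DEN L-CD replicates 1 and 2 and nonDEN L-CD replicates 1 and 2 in that order. Markers of other cell types moved in this comparison too: 3 of 4 B cell markers were called higher, *Cd79a* at 2.18, *Cd79b* at 1.72 and *Ms4a1* at 2.67. Of 6 T cell markers only *Cd8a* (2.16) passed, and of 5 tested NK cell markers only *Gzma* (2.06), both called higher. Of 3 pan-leukocyte markers 1 rose, and 1 of 3 tested neutrophil markers was called lower. *Col3a1* of the 4 stellate cell and fibroblast markers rose (0.73) and 1 of 4 endothelial markers fell. Their part in the result was not tested.

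DEN PT-WD was set against nonDEN L-WD to follow the carcinogen on the western diet, with the tissue beside tumors standing for the liver. Here 5 of the 34 genes rose (7.5% of all genes) and none fell in edgeR or DESeq2, while 4.87% of all genes fell in edgeR. Nor had any of the 34 a negative fold change with an unadjusted p under 0.05 in either, where 12.9% and 14.0% of all genes did. *Ifi44*, an interferon-induced protein that restrains viral replication, rose at 1.16 ± 0.31 (adjusted p = 0.0175), and *Oas1a*, which makes the 2′-5′ oligoadenylates that activate RNase L, rose at 1.07 ± 0.25 (adjusted p = 0.00939). These 2 were called (5.88% of the list, and 2.36% of all genes called higher). *Ifit2* (0.95 ± 0.20, adjusted p = 0.00482), *Irf8* (0.80 ± 0.17, adjusted p = 0.00469) and *Oasl2* (0.78 ± 0.25, adjusted p = 0.0407) rose without reaching the fold threshold. *Usp18* (0.32 ± 0.18, adjusted p = 0.228), *Isg15* (0.52 ± 0.23, adjusted p = 0.141) and *Irf7* (0.63 ± 0.22, adjusted p = 0.0587) did not pass the test. *Ifi44* missed the threshold without nonDEN L-WD replicate 1, 2 or 3 (adjusted p = 0.0505, 0.0511 and 0.0582), and *Oas1a* fell below the fold threshold without DEN PT-WD replicate 3 or 8 or nonDEN L-WD replicate 3 (log2 fold change of 0.96, 0.96 and 0.98). Without DEN PT-WD replicate 6, 10 genes rose and *Ifit2* was called too, and without nonDEN L-WD replicate 1, 2 or 3, 3 genes rose. Without nonDEN L-WD replicate 3 no gene was called. In limma on log2 TPM, where the median of all genes moved by 0.18, 18 of the 34 genes rose, and at an unadjusted p under 0.05 24 of the 34 and 35.5% of all genes were higher.

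DEN PT-WD against DEN L-CD asks for the effect of the western diet in DEN-injected mice, and shares the 8 peritumoral libraries with the comparison above. In it 6 of the 34 genes rose (6.8% of all genes) and none fell (3.76% of all genes). At an unadjusted p under 0.05, 9 of the 34 were higher in edgeR and 8 in DESeq2, with 16.4% and 15.2% of all genes. At that p 0 were lower in either, with 10.9% and 13.0% of all genes. *Oas3* (1.42 ± 0.39, adjusted p = 0.0214) and *Ifi44* (1.01 ± 0.31, adjusted p = 0.0361) were called, which is 5.88% of the list, and 1.52% of all genes were called higher. *Oasl2* (0.88 ± 0.25), *Oas1a* (0.86 ± 0.25), *Ifit2* (0.82 ± 0.20) and *Irf8* (0.70 ± 0.17) rose as well. The number that rose depended on single libraries: 2 genes rose without DEN L-CD replicate 1, 0 without DEN L-CD replicate 3, 3 without DEN L-CD replicate 4 and 3 without DEN PT-WD replicate 8. Adjusted p for *Oas3* was 0.0507, 0.084 and 0.0629 without DEN L-CD replicates 1, 3 and 4. *Ifi44* lost its call under the removal of any DEN L-CD library (adjusted p of 0.055 to 0.132) and of DEN PT-WD replicate 2, 3, 4 or 8 (0.0526 to 0.0683), and in each of the 6 other settings tried. In limma on log2 TPM, where the median of all genes moved by 0.26, 23 of the 34 genes rose, and at an unadjusted p under 0.05 27 of the 34 and 49.4% of all genes were higher.

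Markers of other cell types were set beside both peritumoral comparisons. The summed level of 7 Kupffer cell and macrophage markers was 271 to 571 CPM in DEN PT-WD, compared with 243 to 369 in nonDEN L-WD and 231 to 408 in DEN L-CD, with 2 and 3 of the 7 markers higher at an adjusted p of at most 0.05. The 3 pan-leukocyte markers summed to 136 to 193 CPM, compared with 117 to 157 and 121 to 152, and 1 and 0 of the 3 were higher. Of the T cell markers 2 and 0 of 6 were higher, of the NK cell markers 1 and 0 of 5, and of the 4 B cell and 3 tested neutrophil markers none passed in either. Of the 4 stellate cell and fibroblast markers 3 and 2 were higher, with *Col1a1* (1.59) and *Col3a1* (1.37) called against DEN L-CD, and of the 4 endothelial markers 2 and 3. *Itgax* of the 5 classical dendritic cell markers was called in both (1.35 and 1.92), and *Ly6d* of the 5 plasmacytoid markers against nonDEN L-WD (3.10). No other marker of either list passed. Against nonDEN L-WD the plasmacytoid markers *Siglech* (-0.14), *Klk1* (-0.40) and *Cox6a2* (-0.39) were below 0, and *Ccr9* was at 0.04. None of the macrophage and pan-leukocyte markers was at 0 in every library of a group. Their part in the results was not tested, and in bulk tissue more cells of a type and more RNA per cell cannot be told apart.

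The next comparison set tumors against the tissue around them. In DEN T-WD compared with DEN PT-WD, 7 of the 34 genes rose, or 20.6%, which is close to the 19.5% of all genes that rose in this comparison. They were *Ifi44* (0.89 ± 0.25, adjusted p = 0.00665), *Oas1a* (0.72 ± 0.20, adjusted p = 0.00762), *Isg15* (0.56 ± 0.20, adjusted p = 0.0289), *Ifit2* (0.47 ± 0.16, adjusted p = 0.0269), the peptide transporter subunits *Tap1* (0.40 ± 0.13, adjusted p = 0.0162) and *Tap2* (0.31 ± 0.09, adjusted p = 0.00648), and *Ifih1* (0.29 ± 0.08, adjusted p = 0.00672). None fell and none reached the fold threshold in edgeR or in DESeq2. Of all genes in edgeR 18.1% fell, 4.81% were called higher and 3.09% called lower. An unadjusted p under 0.05 was found for 10 genes in edgeR and 11 in DESeq2, all higher in tumors. At that p 23.6% and 24.1% of all genes were higher, and 22.4% and 21.9% lower. Without DEN T-WD replicate 5, 8 genes rose and 1, *Bst2*, fell. In limma on log2 TPM, where the median of all genes moved by 0.11, 12 of the 34 genes rose and 1 was called. At an unadjusted p under 0.05 in limma, 14 of the 34 and 33.1% of all genes were higher. In edgeR *Ifi44* was called without DEN PT-WD replicate 3 or 8, at 1.01 in both fits. Markers moved in both directions: 7 macrophage markers summed to 232.0 to 479.9 CPM in tumors, with 0 higher and 3 lower, and 6 hepatocyte markers to 39450 to 159400 CPM, compared with 52280 to 89320 in peritumoral liver, with 3 higher and 1 lower. Of 5 plasmacytoid dendritic cell markers 2 were higher, of 4 endothelial markers 1 was higher, and of 4 stellate cell and fibroblast markers 2 were higher and 2 lower. Their part in the result was not tested. Whether a tumor and a peritumoral sample came from one mouse is not given, so the groups were compared without pairs.

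To show the whole distance from the untreated liver, both tissues of DEN-injected mice on the western diet were also set against nonDEN L-CD. These comparisons were added after values had been seen, change diet and carcinogen together and use the same 3 controls. In DEN PT-WD, 21 of the 34 genes rose (23.5% of all genes), 12 of them were called (35.3%, against 10.2% of all genes called higher), and *Stat2* fell at -0.83 ± 0.12 (adjusted p = 1.33e-05), where 21.9% of all genes fell. In DEN T-WD, 25 rose (27.8% of all genes) and 13 were called (38.2%, against 14.5%), and *Stat2* (-0.75 ± 0.13, adjusted p = 4.02e-05) and *Irf9* (-0.42 ± 0.14, adjusted p = 0.018) fell (26.2% of all genes). In limma on log2 TPM, where the median of all genes had moved by 0.38, *Stat2* was at -0.26 (adjusted p = 0.119) and *Irf9* at 0.069 (adjusted p = 0.681) in tumors, and without nonDEN L-CD replicate 3 *Irf9* was at -0.33 (adjusted p = 0.108). *Ifi44* had the greatest increase of the 34 genes in both, at 2.14 ± 0.38 (adjusted p = 0.000105) in peritumoral liver and 3.03 ± 0.40 (adjusted p = 1.65e-06) in tumors. Next in tumors came *Mx1* (2.24 ± 0.55), *Ifit2* (2.11 ± 0.24), *Oas1a* (2.10 ± 0.31), *Usp18* (1.85 ± 0.23), *Isg15* (1.76 ± 0.29), *Ifit1* (1.56 ± 0.34), *Oas3* (1.48 ± 0.45), *Ifit3* (1.46 ± 0.25), *Gbp3* (1.29 ± 0.29), *Irf7* (1.26 ± 0.26), *Oasl2* (1.20 ± 0.29) and *Rsad2* (1.20 ± 0.35). In peritumoral liver the same genes were called except *Rsad2*. The call of *Rsad2* in tumors rested on DEN T-WD replicate 5, without which its log2 fold change was 0.78, and *Mx1* stood at 1.51 without that library. In peritumoral liver *Mx1* lost its call without nonDEN L-CD replicate 1 or 2 (adjusted p = 0.0734 and 0.092), *Oas3* without nonDEN L-CD replicate 2 (0.0511) and *Oasl2* without DEN PT-WD replicate 8 (log2 fold change of 0.97). The median log2 fold change of the 34 genes was 0.77 in peritumoral liver and 0.89 in tumors, beside 0.04 and 0.02 for all genes.

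Markers of other cell types were set beside the 34 genes for tumors against nonDEN L-CD: 4 of 4 B cell markers, 3 of 5 tested NK cell markers, 2 of 6 T cell markers, 2 of 3 pan-leukocyte markers, 2 of 5 classical and 2 of 5 plasmacytoid dendritic cell markers, and 4 of 4 endothelial markers were higher. Of 4 stellate cell and fibroblast markers 2 were higher and *Lrat* was lower (-0.76 ± 0.28, adjusted p = 0.0265), of 7 macrophage markers 2 were higher and 2 lower, and of 6 hepatocyte markers 1 was higher and 2 were lower. For peritumoral samples against nonDEN L-CD, 4 of 4 B cell markers, 2 of 5 tested NK cell markers, 2 of 6 T cell markers, 3 of 3 pan-leukocyte markers, 4 of 7 macrophage markers, 2 of 5 classical and 1 of 5 plasmacytoid dendritic cell markers, 3 of 4 endothelial and 3 of 4 stellate cell and fibroblast markers were higher. All 3 tested neutrophil markers and 1 of 6 hepatocyte markers were lower. Their part in the levels of the 34 genes was not tested.

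**Figure D3:**
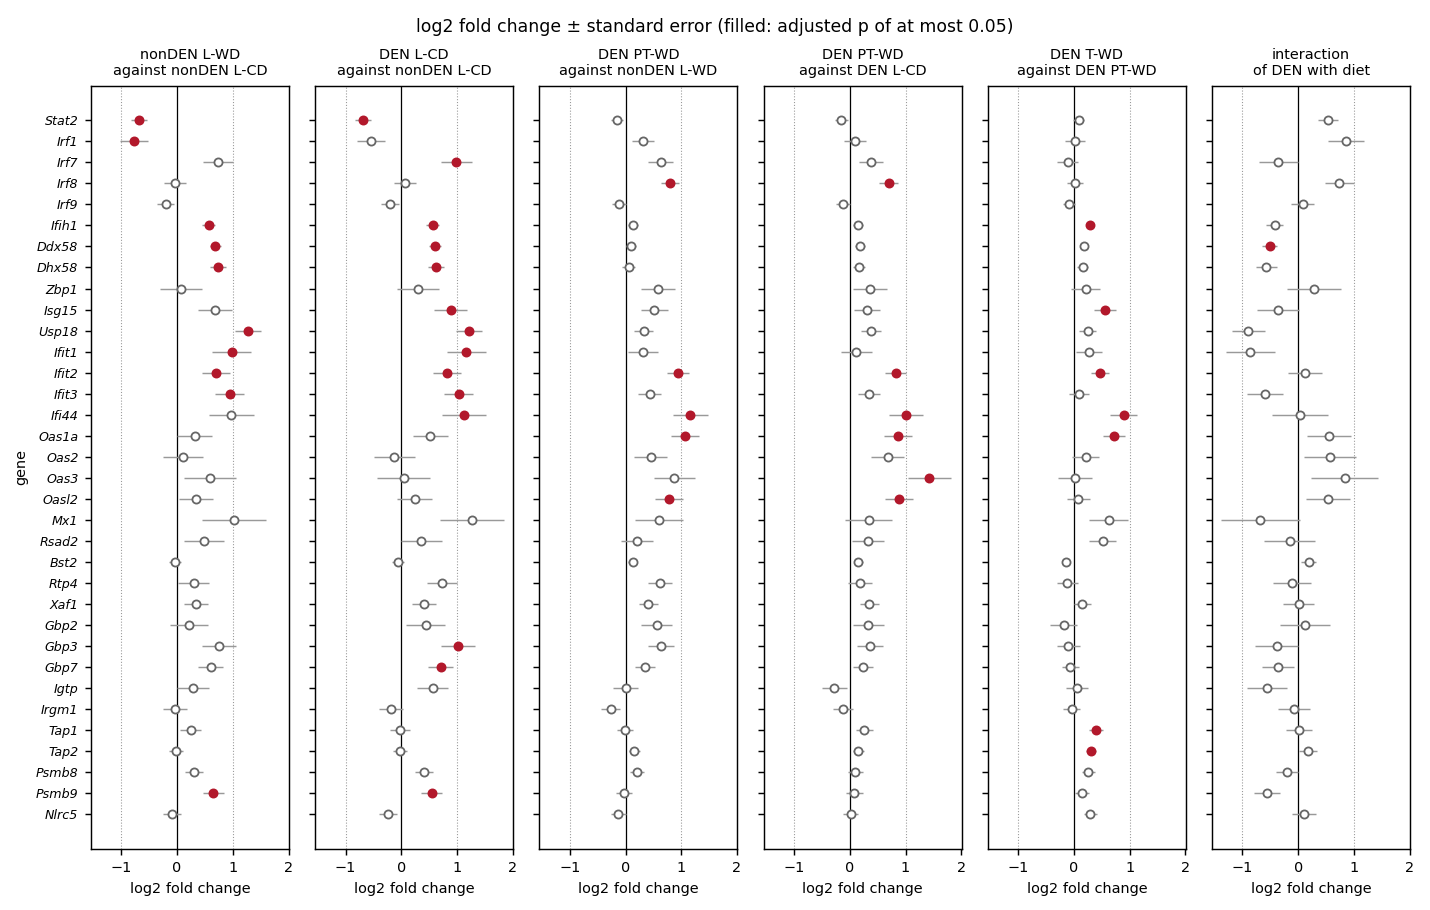
log2 fold change of each of the 34 genes in the 6 planned comparisons, with standard errors; filled points have an adjusted p of at most 0.05 and dotted lines mark a log2 fold change of 1 in either direction. The RNA helicase sensors *Ifih1*, *Ddx58* and *Dhx58* are filled in the 2 comparisons with nonDEN L-CD, and *Ifit2* in 5 of the 6 panels.

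The interaction of DEN with diet compares the response to DEN on the western diet, as peritumoral liver against nonDEN L-WD, with that on the control diet. Of the 34 genes *Ddx58* (RIG-I, a sensor of viral RNA ends) was the one that passed in edgeR, at -0.51 ± 0.14 (adjusted p = 0.0228), where 3.74% of all genes passed with a negative interaction. Its level rose by 0.60 with DEN on the control diet and stood at 0.10 (adjusted p = 0.473) with DEN on the western diet. *Ddx58* missed the threshold without DEN L-CD replicate 1 or nonDEN L-CD replicate 2 (adjusted p = 0.0512 and 0.0938), with the replicate block (0.0559) and under limma on log2 TPM (0.0656). DESeq2 passed 1 gene above 0 and 4 below it, and limma 1 above and 0 below. In edgeR 3 genes passed below 0 without DEN L-CD replicate 3 or without nonDEN L-WD replicate 2, 2 without DEN PT-WD replicate 2, 6 or 8, and 1 passed above 0 without DEN PT-WD replicate 6, nonDEN L-CD replicate 1 or nonDEN L-WD replicate 4. No gene was called in edgeR, DESeq2 or limma with all libraries, *Usp18* was called without DEN L-CD replicate 3 at -1.005 (adjusted p = 0.0431), and 8 of the 34 had an unadjusted p under 0.05 in edgeR and 9 in DESeq2, where 24.1% of all genes did in each. *Usp18* (-0.89 ± 0.29, adjusted p = 0.0582) and *Dhx58* (-0.57 ± 0.18, adjusted p = 0.0558) were nearest to the threshold below 0, and *Stat2* (0.53 ± 0.18, adjusted p = 0.0696) and *Irf8* (0.74 ± 0.26, adjusted p = 0.0795) above it. The 34 values lay evenly around 0, with 17 on either side.

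By role, the ISG15 system held *Usp18*, called in every contrast with nonDEN L-CD, and *Isg15*, which rose in all of them but nonDEN L-WD. *Isg15* encodes a ubiquitin-like protein that is joined to new proteins. *Usp18* was at 3.55, 3.24 and 4.72 CPM in the control livers, 7.79, 7.65, 8.93 and 12.8 in western diet livers and 10.8, 10.7, 6.75 and 7.41 in DEN livers. It ran from 6.69 to 15.0 with a median of 12.6 CPM in peritumoral samples and from 13.4 to 14.2 with a median of 13.9 in tumors. The 3 control livers were below all 22 other libraries, and the 6 tumors lay within 1 CPM of each other. *Isg15* was at 2.32, 2.74 and 3.81 CPM in control livers, 2.96, 4.20, 4.24 and 7.58 in western diet livers and 7.62, 5.44, 3.33 and 5.42 in DEN livers. It ran from 4.89 to 10.6 with a median of 6.46 CPM in peritumoral samples and from 7.69 to 11.8 with a median of 10.5 in tumors. Both groups with a single factor overlapped the controls for *Isg15*, and all peritumoral samples and tumors stood above the 3 control livers.

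**Figure D4:**
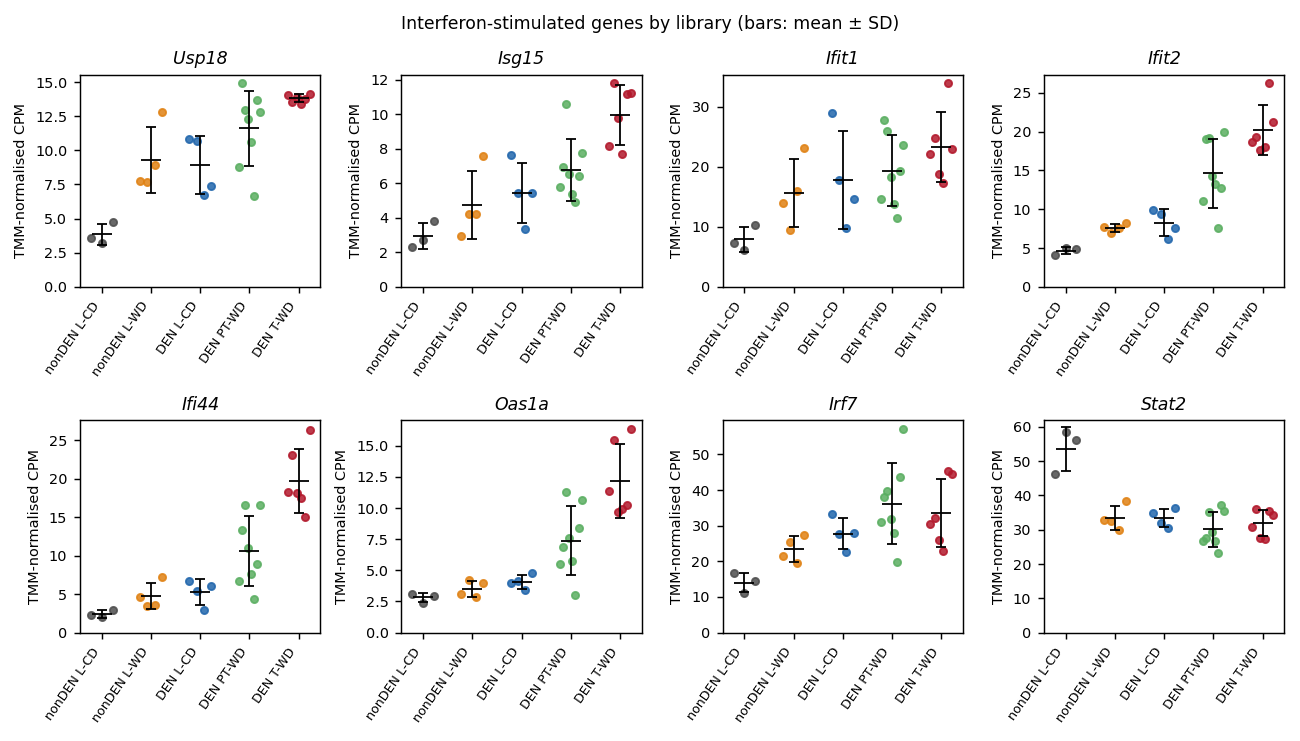
TMM-normalised CPM of 8 of the genes in each library, by group, with the mean and SD as bars. *Usp18* and *Stat2* separate the 3 nonDEN L-CD libraries from all others, in opposite directions, whereas *Ifi44* and *Oas1a* are highest in the tumors.

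The 13 antiviral effectors gave 3, 4, 4, 5 and 3 of the increases in the 5 pairwise comparisons, in the order above, where 11.2%, 9.12%, 7.5%, 6.8% and 19.5% of all tested genes rose. The IFIT proteins bind foreign RNA ends and block their translation. *Ifit1* was at 7.35, 6.15 and 10.3 CPM in control livers, 13.9, 9.40, 16.0 and 23.2 in western diet livers and 29.0, 17.8, 9.78 and 14.6 in DEN livers. It ran from 11.5 to 27.8 with a median of 18.8 CPM in peritumoral samples and from 17.4 to 33.9 with a median of 22.5 in tumors. Its 4 values in DEN livers spanned more than the range of all 8 peritumoral samples. *Ifit2* was at 4.14, 5.03 and 4.84 CPM in control livers, 7.68, 6.97, 7.52 and 8.20 in western diet livers and 9.92, 9.40, 6.14 and 7.63 in DEN livers. It ran from 7.53 to 19.9 with a median of 13.8 CPM in peritumoral samples and from 17.6 to 26.3 with a median of 19.0 in tumors. *Ifit2* was the gene that passed most often, in 5 of the 6 planned comparisons, and the tumors stood above every liver without DEN. *Ifit3* was at 7.10, 6.98 and 12.00 CPM in control livers, 17.3, 12.6, 15.7 and 21.3 in western diet livers and 20.5, 21.4, 14.6 and 14.5 in DEN livers, and ran from 14.5 to 29.8 with a median of 20.2 in peritumoral samples and from 18.3 to 32.1 with a median of 24.3 in tumors. Of the words of 50 bases in *Ifit3* transcripts, 51.2% also occur in *Ifit3b*, so that its count depends on how reads were divided between the pair.

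*Ifi44* was at 2.28, 1.99 and 2.98 CPM in control livers, 4.65, 3.52, 3.65 and 7.23 in western diet livers and 6.70, 5.44, 2.89 and 6.04 in DEN livers. It ran from 4.31 to 16.7 with a median of 9.95 CPM in peritumoral samples and from 15.1 to 26.4 with a median of 18.2 in tumors. The mean in tumors, 19.8 ± 4.16 CPM (SD, n = 6), compares with 2.42 ± 0.507 in control livers (n = 3), and the peritumoral values filled the space between. The oligoadenylate synthetases sense double-stranded RNA. *Oas1a* was at 3.13, 2.41 and 2.98 CPM in control livers, 3.10, 4.20, 2.87 and 3.96 in western diet livers and 3.95, 4.13, 3.42 and 4.81 in DEN livers, and ran from 3.01 to 11.3 with a median of 7.22 in peritumoral samples and from 9.70 to 16.3 with a median of 10.8 in tumors. Its 3 liver groups outside the DEN and western diet combination lay between 2.41 and 4.81 CPM, below 7 of the 8 peritumoral samples and all tumors. The count is uncertain in that 57.6% of its words of 50 bases also occur in *Oas1g* or *Oas1b*. *Oas3* was at 1.35, 0.997 and 1.24 CPM in control livers, 1.27, 2.46, 1.56 and 1.92 in western diet livers and 1.46, 1.57, 0.745 and 1.15 in DEN livers, and ran from 1.17 to 5.97 with a median of 3.16 in peritumoral samples and from 1.47 to 5.89 with a median of 3.11 in tumors. The peritumoral samples and tumors of *Oas3* covered nearly the same range. *Oas2* did not pass in any planned comparison, with 1.70 ± 0.216 CPM in control livers and 2.87 ± 1.25 in tumors (SD). *Oasl2*, an oligoadenylate synthetase-like protein, passed in the 2 peritumoral comparisons, with 5.69 ± 0.864 CPM in western diet livers, 5.30 ± 0.676 in DEN livers and 9.73 ± 3.23 in peritumoral samples.

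Of the remaining effectors, *Mx1* was at 0.465, 0.374 and 0.910 CPM in control livers, 1.13, 1.26, 0.856 and 1.501 in western diet livers and 2.22, 1.26, 1.23 and 0.926 in DEN livers, and ran from 0.962 to 2.61 with a median of 1.73 in peritumoral samples and from 1.00 to 8.12 with a median of 1.95 in tumors. *Rsad2* (viperin, which makes a chain-terminating nucleotide) was at 8.83, 7.27 and 12.6 CPM in control livers, 12.6, 10.5, 13.5 and 16.9 in western diet livers and 16.9, 13.9, 8.42 and 9.75 in DEN livers, and ran from 8.53 to 21.9 with a median of 15.5 in peritumoral samples and from 13.7 to 49.4 with a median of 16.7 in tumors. The highest tumor value of both genes belonged to DEN T-WD replicate 5. *Bst2*, *Rtp4* and *Xaf1* did not pass in any planned comparison. *Bst2* was nearly flat, from 60.1 ± 2.99 CPM in DEN livers to 66.8 ± 4.68 in peritumoral samples (SD). *Rtp4*, a chaperone of receptors, had 9.38 ± 2.14 CPM in control livers and 17.6 ± 5.45 in peritumoral samples, and *Xaf1*, which promotes apoptosis, had 4.08 ± 0.876 and 7.62 ± 0.994 CPM in control livers and tumors.

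The 3 RNA helicase sensors varied little within groups. *Ifih1* (MDA5, a sensor of long double-stranded RNA) was at 29.8, 33.4 and 36.7 CPM in control livers, 49.1, 42.4, 50.6 and 55.2 in western diet livers and 53.9, 48.3, 44.7 and 49.5 in DEN livers, and ran from 46.7 to 62.1 with a median of 53.7 in peritumoral samples and from 56.8 to 80.4 with a median of 65.1 in tumors. *Ddx58* was at 21.2, 20.3 and 25.6 CPM in control livers, 36.04, 33.3, 36.2 and 38.7 in western diet livers and 37.5, 32.3, 31.1 and 35.0 in DEN livers, and ran from 31.8 to 44.3 with a median of 37.9 in peritumoral samples and from 39.3 to 48.8 with a median of 43.5 in tumors. The 3 control livers were below all 22 other libraries for both genes. *Dhx58* (LGP2, which regulates both sensors) had means of 5.81 ± 0.394 CPM in control livers, 9.67 ± 0.314 in western diet livers, 8.96 ± 1.62 in DEN livers, 10.04 ± 1.05 in peritumoral samples and 11.2 ± 1.92 in tumors (SD). *Zbp1*, a sensor of Z-form nucleic acid that can start necroptosis, passed in no planned comparison. It was at 5.24, 7.64 and 7.08 CPM in control livers, 6.80, 5.81, 7.07 and 8.31 in western diet livers and 11.8, 7.79, 6.88 and 6.26 in DEN livers, and ran from 4.01 to 19.4 with a median of 9.95 in peritumoral samples and from 7.34 to 17.6 with a median of 11.62 in tumors, with overlap of all groups.

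The 5 transcription factors did not move together. *Irf7*, the factor that amplifies type I interferon production, was at 16.6, 11.2 and 14.4 CPM in control livers, 21.5, 25.4, 19.5 and 27.3 in western diet livers and 33.2, 27.5, 22.6 and 27.8 in DEN livers, and ran from 20.0 to 57.3 with a median of 35.0 in peritumoral samples and from 22.9 to 45.4 with a median of 31.3 in tumors. All 22 other libraries were above the 3 controls. *Stat2* was at 46.4, 58.5 and 56.1 CPM in control livers, 32.9, 32.6, 29.9 and 38.4 in western diet livers and 34.8, 31.9, 30.6 and 36.2 in DEN livers, and ran from 23.1 to 37.3 with a median of 28.4 in peritumoral samples and from 27.4 to 35.9 with a median of 32.5 in tumors. It went the opposite way, with all 22 other libraries below the 3 controls. *Irf9*, its partner, was at 29.4, 31.6 and 36.2 CPM in control livers, 28.0, 24.3, 27.9 and 32.4 in western diet livers and 36.2, 29.4, 21.3 and 25.9 in DEN livers, and ran from 19.4 to 32.2 with a median of 26.0 in peritumoral samples and from 21.2 to 27.6 with a median of 24.5 in tumors. The groups of *Irf9* overlapped except that the tumors lay below the controls. *Irf1*, which responds to type II interferon and inflammatory cytokines, had 26.5 ± 2.53 CPM in control livers and 15.5 ± 3.05 in western diet livers (SD), and was at 18.1 ± 3.77, 19.3 ± 5.43 and 19.6 ± 5.29 CPM in the DEN livers, peritumoral samples and tumors. *Irf8*, a factor of macrophages, dendritic cells and B cells, was at 5.96, 5.90 and 7.61 CPM in control livers, 6.13, 7.58, 6.40 and 5.12 in western diet livers and 6.93, 7.66, 5.74 and 6.83 in DEN livers, and ran from 8.12 to 14.9 with a median of 10.7 in peritumoral samples and from 7.66 to 13.3 with a median of 11.60 in tumors. Every peritumoral sample stood above all 11 samples of the other liver groups for *Irf8*.

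Among the GTPases, which attack the vacuoles of intracellular pathogens, *Gbp3* was at 5.58, 4.74 and 6.75 CPM in control livers, 8.84, 8.17, 9.94 and 11.3 in western diet livers and 12.3, 17.1, 7.41 and 9.39 in DEN livers, and ran from 9.87 to 21.3 with a median of 13.8 in peritumoral samples and from 8.69 to 19.1 with a median of 14.2 in tumors. The controls were again the lowest. *Gbp7* had means of 16.8 ± 4.55 CPM in control livers and 32.3 ± 5.00 in peritumoral samples (SD). *Gbp2*, *Igtp* and *Irgm1* did not pass in any planned comparison. *Gbp2* had 8.61 ± 2.04 CPM in control livers and 12.9 ± 3.81 in tumors, *Igtp* had 24.6 ± 3.42 and 31.2 ± 8.94 CPM in the same groups, and *Irgm1* had its lowest mean in tumors, 49.3 ± 8.93 CPM, beside 62.6 ± 14.8 in control livers.

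Of the 5 genes of class I antigen processing, 1, 1, 0, 0 and 2 rose in the 5 pairwise comparisons, where 11.2%, 9.12%, 7.5%, 6.8% and 19.5% of all tested genes rose. None fell in edgeR, where 12.0%, 12.2%, 4.87%, 3.76% and 18.1% of all tested genes fell. The transporter subunit *Tap1* was at 16.3, 20.8 and 19.2 CPM in control livers, 25.6, 19.6, 23.6 and 19.9 in western diet livers and 20.0, 22.8, 13.8 and 17.3 in DEN livers, and ran from 17.9 to 30.6 with a median of 21.03 in peritumoral samples and from 22.6 to 37.9 with a median of 29.7 in tumors. *Tap2* ran from 15.3 to 21.9 with a median of 16.7 CPM in peritumoral samples and from 17.4 to 27.0 with a median of 21.4 in tumors. *Psmb8* was at 15.4, 13.3 and 17.5 CPM in control livers, 18.7, 15.9, 22.5 and 18.8 in western diet livers and 21.8, 24.2, 16.6 and 18.8 in DEN livers, and ran from 17.9 to 28.8 with a median of 20.4 in peritumoral samples and from 21.6 to 30.4 with a median of 26.7 in tumors, and did not pass in a planned comparison. *Psmb9*, whose product sits beside that of *Psmb8* in the immunoproteasome, had 7.63 ± 1.23 CPM in control livers, 11.96 ± 2.40 in western diet livers and 11.1 ± 2.74 in DEN livers (SD). *Psmb9* and *Tap1* overlap on opposite strands, and whether strand was used in counting is not stated, so that their reads may not be fully separated. *Nlrc5*, the transactivator of class I genes, was at 17.5 ± 2.60 CPM in peritumoral samples and 21.4 ± 3.84 in tumors, a log2 difference of 0.29 ± 0.12 (adjusted p = 0.0513).

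The pooled within-group SD of log2 CPM had a median of 0.34 over the 34 genes and 0.23 over all tested genes. It was greatest in *Mx1* (0.64), *Oas3* (0.61) and *Zbp1* (0.52) and least in *Bst2* (0.13), *Ddx58* (0.14) and *Ifih1* (0.15). The genes varied together: after group means were removed, the correlation over 25 libraries of a gene with the mean of the other 33 had a median of 0.75, and was above 0.5 in 29 of the 34. It was lowest in *Tap2* (0.18), *Bst2* (0.23) and *Psmb9* (0.38), and without DEN T-WD replicate 5 in *Bst2* (0.09), *Tap2* (0.34) and *Psmb9* (0.36). Libraries share depth and composition, and these correlations are descriptions.

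The shared variation lay in particular libraries. DEN PT-WD replicate 6 had the lowest value of its group in 29 of the 34 genes, and its mean log2 CPM of 3.34 was 0.56 below the group mean. DEN PT-WD replicate 3 was highest in 18 genes and replicate 8 in 10, with means of 4.32 and 4.24. DEN L-CD replicate 3 was lowest in 28 genes (mean of 3.24), and DEN T-WD replicate 5 was highest in 16 genes and lowest in 5 (mean of 4.38). The markers followed the same libraries in part. DEN PT-WD replicate 6 also had the lowest summed level of macrophage markers (270.9 CPM) and of pan-leukocyte markers (136.2 CPM) of its group, whereas DEN PT-WD replicate 8 had the highest of both (570.6 and 193.5 CPM). In DEN L-CD, replicate 3 had 266.6 and 131.9 CPM, inside the range of its group. The part of these markers in the levels of the 34 genes was not tested.

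**Figure D5:**
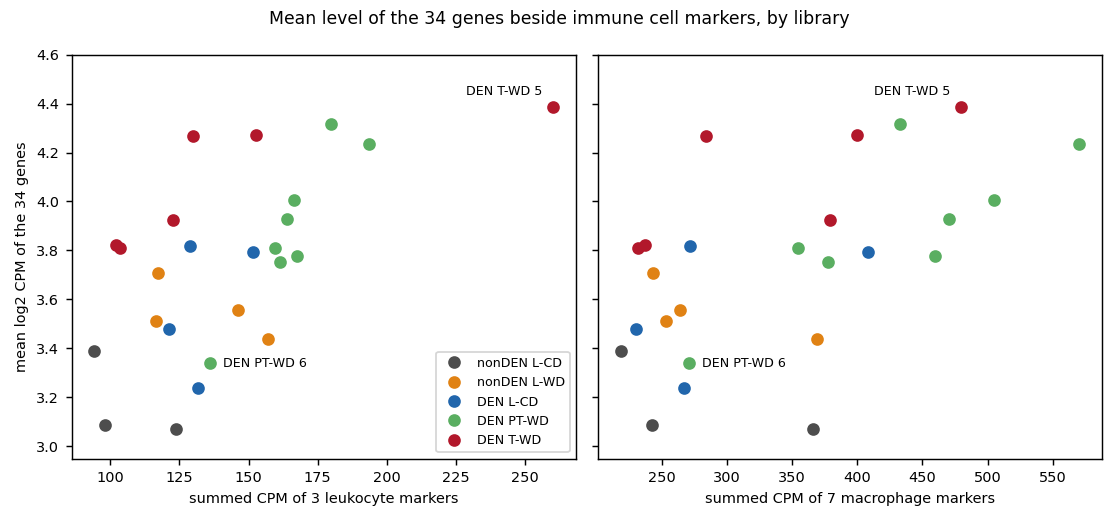
Mean log2 CPM of the 34 genes (vertical axis) against the summed CPM of 3 pan-leukocyte markers (left) and of 7 Kupffer cell and macrophage markers (right), 1 point per library and coloured by group. DEN T-WD replicate 5 is at the upper right with 260.1 CPM of leukocyte markers. The 3 tumors between 102.1 and 122.6 CPM have means of 3.81 to 3.93, above all nonDEN livers and below the remaining tumors. Those, at 129.8 to 260.1 CPM, have means of 4.27 to 4.38.

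Interferon genes were near or at 0. Of 8 interferon genes in a fixed list, *Ifnb1*, *Ifna4*, *Ifna2*, *Ifnl2*, *Ifnl3* and *Ifne* were at 0 counts in all 25 libraries, which allows up to 3 counts in each, or 0.0788 to 0.139 CPM, for counting error only. *Ifng* reached at most 4 counts and *Ifnk* at most 2. The 6 receptor genes were all measured. In the 5 pairwise comparisons, in the order used above, 0, 0, 2, 3 and 4 of them rose, where 11.2%, 9.12%, 7.5%, 6.8% and 19.5% of all tested genes rose. Receptor genes fell only in DEN L-CD against nonDEN L-CD, *Ifngr2* at -0.52 and *Ifnar1* at -0.19, where 12.2% of all genes fell. *Ifngr1*, a chain of the type II receptor, was at 18.2 ± 0.952 CPM in control livers, 26.5 ± 4.68 in peritumoral samples and 48.2 ± 9.10 in tumors (SD), and rose in tumors over peritumoral liver at 0.86 ± 0.11 (adjusted p = 5.89e-06). *Ifnlr1*, a chain of the type III receptor, was at 0.377 ± 0.202 CPM in peritumoral samples and 1.63 ± 0.210 in tumors, with a log2 fold change of 2.09 ± 0.33 (adjusted p = 4.16e-05). *Ifnar1*, of the type I receptor, lay between 33.8 ± 0.758 CPM in DEN livers and 41.1 ± 1.60 in tumors.

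Of 22 genes of sensing and signalling, 2 rose and 8 fell in nonDEN L-WD compared with nonDEN L-CD, and 0 rose and 8 fell in DEN L-CD. Of all tested genes 11.2% rose and 12.0% fell in the former, and 9.12% rose and 12.2% fell in the latter. *Socs3*, a feedback inhibitor of JAK kinases, fell at -2.95 ± 0.38 (adjusted p = 1.61e-05) and -1.68 ± 0.36 (adjusted p = 0.00218) in these comparisons, *Stat3* at -1.24 ± 0.23 (adjusted p = 0.000543) and -1.09 ± 0.23 (adjusted p = 0.00158), and the adaptor *Myd88* at -1.25 ± 0.12 (adjusted p = 8.94e-07) and -1.23 ± 0.12 (adjusted p = 1.47e-06). Levels of *Socs3* were 32.9 ± 17.2 CPM in control livers and 4.27 ± 1.46 in western diet livers, with the 3 controls that held the highest values of *Stat2*. In DEN PT-WD 3 rose and 3 fell against nonDEN L-WD, and 1 rose and 2 fell against DEN L-CD, with *Irf3* (-0.29 and -0.26) and *Mavs*, the adaptor of the RNA helicase sensors (-0.34 and -0.31), lower in both. Of all tested genes 7.5% rose and 4.87% fell in the former, and 6.8% rose and 3.76% fell in the latter. The endosomal sensor *Tlr7* rose in DEN PT-WD against nonDEN L-WD (0.83 ± 0.24, adjusted p = 0.0294) and against DEN L-CD (0.99 ± 0.25, adjusted p = 0.0139). In tumors against peritumoral liver 3 rose, among them *Tlr9* (0.77 ± 0.29, adjusted p = 0.0412), and *Irf2* (-0.51) and *Mavs* (-0.30) fell, where 19.5% of all genes rose and 18.1% fell.

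A list of 48 other interferon-stimulated genes, of which 47 were tested, was counted in the same way. In nonDEN L-WD against nonDEN L-CD 5 rose and 1 fell, in DEN L-CD against nonDEN L-CD 9 rose and 1 fell, in DEN PT-WD against nonDEN L-WD 12 rose and 1 fell, in DEN PT-WD against DEN L-CD 9 rose and 0 fell, and in DEN T-WD against DEN PT-WD 5 rose and 4 fell. Over all tested genes 11.2%, 9.12%, 7.5%, 6.8% and 19.5% rose in these comparisons, in the same order, and 12.0%, 12.2%, 4.87%, 3.76% and 18.1% fell. Among those called, *Gbp10* rose by 1.73 and 1.53 (log2) in the 2 comparisons with nonDEN L-CD and *Gbp6* by 1.00 and 1.02. *Gbp11* (1.94), *Gbp5* (1.19) and *Ifit3b* (1.01) were called in DEN L-CD against nonDEN L-CD. *Oas1g* was called in DEN PT-WD against nonDEN L-WD (1.10) and against DEN L-CD (1.62) and in DEN T-WD against DEN PT-WD (1.02), and *Ifi27l2a* in the first of these (1.04). Of 11 class I molecules and proteasome activators, 0, 1, 1, 0 and 4 rose in the 5 comparisons in the same order. The 4 that rose in tumors were *H2-Q7* (0.77), *H2-T23* (0.39), *H2-Q4* (0.32) and *H2-D1* (0.27), and *Erap1* fell (-0.26).

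Among the other tested genes, the 8 whose values followed the mean of the 34 most closely after group means were removed were *Rnf213* (r = 0.90), *Gm12250* (0.90), *Ms4a6c* (0.89), *Msr1* (0.89), *Gm1966* (0.89), *Tlr8* (0.88), *Ms4a4c* (0.88) and *Ifi206* (0.87), each over 25 libraries. *Msr1* is a scavenger receptor of macrophages and *Tlr8* an endosomal sensor of myeloid cells. In the list of plasmacytoid dendritic cell markers, which summed to 10.7 to 19.5 CPM in nonDEN L-CD and 111 to 191 in tumors, *Ly6d* alone held 139.6 ± 28.9 CPM in tumors and *Siglech* 0.990 ± 0.474 (SD). In tumors against nonDEN L-CD no marker of the bile duct passed, nor did any of the pancreas, whose summed level ranged from 0.208 to 3005 CPM over libraries, and 1 of 3 tested neutrophil markers was lower, with *Ly6g* at 0 in every liver outside DEN PT-WD and DEN T-WD.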

How the data were processed

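RNA of bulk liver and tumor tissue (25 libraries, 5 groups as labelled) was prepared with an mRNA kit, sequenced single-end, aligned to GRCm38 with STAR and counted with RSEM by the authors. Versions, annotation and the use of strand are not given in the sources used here. The deposited files hold RSEM expected counts, TPM and FPKM for 48795 genes, of which 48435 identifiers had a GENCODE M21 symbol. FPKM values of the deposited files were not used. Expected counts deposited by the authors were rounded to whole numbers, genes with too few reads were removed (filterByExpr, minimum count 10, leaving 15625) and a model of 5 groups was fitted in edgeR 4.0.16 (TMM, quasi-likelihood test, R 4.3.3) with Benjamini-Hochberg adjustment over all 15625 genes. TMM-normalised CPM give levels of a gene across libraries, and TPM computed by the authors give the order of genes. Alternatives were DESeq2 1.42.0 (Wald test), its size factors in edgeR, no filter on low counts, the compared groups only, a replicate block, no minimum fold change, limma 3.58.1 on log2 (TPM + 0.5) and removal of each library. Depth was 21530083 to 38074411 counts per library, and no pair of replicates agreed within sampling noise (chi-square per gene of at least 29.08). Counts simulated from these libraries were used to test the fit. The 34 genes and all lists were chosen with earlier results of these data known. All 34 genes are named. Values by library (the lowest, median and highest in the groups of 6 and 8) are given for up to 4 genes of greatest change among those called in a comparison, for *Irf7*, *Isg15*, *Usp18*, *Ifit1*, *Stat2*, *Irf9*, *Psmb8* and *Tap1*, and for the 3 genes with the greatest SD within groups; those of *Rsad2*, *Ifih1*, *Ddx58* and *Irf8* were added after their values were seen, as were the 2 comparisons of DEN PT-WD and DEN T-WD with nonDEN L-CD. Promoter windows came from RefSeq GRCm38.p6 and were searched for letters in Python 3.11.15, and 28 of the 31 windows of these genes hold the first 20 bases of a GENCODE transcript of the gene.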

Additional observations from a re-analysis of the deposited data

Results flagged for a closer look

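Of 136 groups of 4 to 10 libraries tested with Dixon's criterion, 6 held an outlying library, where chance alone flags about 1 in 20 groups. In 3 of the 6 the library was DEN T-WD replicate 5, which had the highest value among tumors for *Mx1* (8.12 CPM, the others 1.00 to 2.10), *Rsad2* (49.4 CPM, the others 13.7 to 18.6) and *Bst2* (77.9 CPM, the others 53.5 to 60.6). That library also had the lowest level of hepatocyte markers (39450 CPM) and the highest of pan-leukocyte markers (260.1 CPM) among tumors, and the part of these in its values was not tested. DEN PT-WD replicate 3 had the highest value of its group for *Gbp2* (24.3 CPM, the others 11.3 to 17.3) and *Tap2* (21.9 CPM, the others 15.3 to 18.0). *Tap2* was lowest in nonDEN L-WD replicate 4, at 13.3 CPM, with the others at 16.0 to 16.4.

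The interaction of DEN with diet passed for *Ddx58* in edgeR with all libraries, at -0.51 on the log2 scale. It missed the threshold without DEN L-CD replicate 1 or nonDEN L-CD replicate 2 (adjusted p = 0.0512 and 0.0938), with the replicate block (0.0559) and in limma (0.0656). The adjusted p of *Ddx58* over all alternatives was 0.0057 to 0.0938. Its log2 fold change was 0.60 with DEN on the control diet and 0.10 on the western diet.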

How the results depend on the processing

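No called fold change of a gene changed direction, while *Irf9* in tumors against nonDEN L-CD, which had passed without being called, was at 0.069 in limma on log2 TPM and the median interaction, -0.03, was 0.14 in limma on log2 TPM. Of the refitted fold changes of single genes, 591 stayed on their side of the threshold and 68 lost their call or missed the adjusted p. The order of comparisons here is nonDEN L-WD and DEN L-CD against nonDEN L-CD, peritumoral samples against nonDEN L-WD and against DEN L-CD, tumors against peritumoral samples, the interaction, and peritumoral samples and tumors against nonDEN L-CD. With no minimum fold change, 10, 14, 5, 6, 7, 1, 22 and 27 of the 34 genes were called. Leaving out 1 library gave 1 to 3, 1 to 7, 0 to 3, 0 to 2, 0 to 1, 0 to 1, 10 to 14 and 12 to 17 called genes. For peritumoral samples against DEN L-CD, where 2 genes were called, 1 was called in DESeq2, with its size factors, without the filter and with only the compared groups (*Oas3*), while in limma on log2 TPM both calls were lost and 1 other gene, *Oasl2*, was called. In limma 2 genes were called in nonDEN L-WD against nonDEN L-CD, 1 in tumors against peritumoral samples and 24 in tumors against nonDEN L-CD, where the median of all genes had moved by 0.38. At an unadjusted p under 0.05 in limma, 15, 14 and 30 of the 34 genes were higher in these comparisons, and 20.0%, 33.1% and 56.5% of all genes. The cause of these differences was not tested. With the replicate block, 3 genes were called in DEN L-CD against nonDEN L-CD, 1 in peritumoral samples against nonDEN L-WD, 0 in peritumoral samples against DEN L-CD, 1 in tumors against peritumoral samples and 11 in peritumoral samples against nonDEN L-CD. In those fits 3 results missed the threshold: the interaction of *Ddx58* (adjusted p = 0.0559), the fall of *Irf9* in tumors against nonDEN L-CD (0.0618) and that of *Irf1* in nonDEN L-WD against nonDEN L-CD (0.07). Over all alternatives the adjusted p ranged from 0.00584 to 0.117 for *Ifit1* and 0.0186 to 0.177 for *Ifi44* in DEN L-CD against nonDEN L-CD, from 0.00235 to 0.0582 (against nonDEN L-WD) and 0.00612 to 0.132 (against DEN L-CD) for *Ifi44* in peritumoral samples, from 0.00374 to 0.0889 for *Oas3* there, from 0.00286 to 0.092 for *Mx1* and 0.00194 to 0.0511 for *Oas3* against nonDEN L-CD, from 0.0133 to 0.172 for *Irf1*, and from 0.0057 to 0.0938 for *Ddx58* in the interaction. The labels do not say whether replicate numbers pair the samples, and these values cannot settle it. Deviations of libraries of the same number had correlations of -0.23 to 0.388. Their means over the 5 pairs of groups were -0.01 to 0.15, beside -0.05 to 0.002 for libraries of other numbers. Genes under about 1 CPM, such as *Mx1* in control liver, rest on few counts (9 at the least).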
